A study of Mus musculus with 6 samples.

Results

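The genes described here encode the receptor chains for interleukin-2 (IL-2), IL-4 and IL-9: Il2ra, Il2rb, Il2rg, Il4ra and Il9r. They were chosen by name, and these 5 of the 18122 genes in the count table all passed the filter on low counts, as did 13691 genes in all. The values come from group 2 innate lymphoid cells (ILC2s), lymphocytes without antigen receptors that release type 2 cytokines, sorted from mouse lung and cultured. There were 3 wild-type (WT) libraries, with the genotype label BALB/C BYJ, and 3 ICOS KO libraries, labelled C.129S4-Icostm1Shr/J, a name that gives both a strain and a targeted form of Icos. Icos encodes a co-stimulatory receptor of lymphocytes. Strain and Icos form therefore cannot be told apart in any difference given here. The age and sex of the mice and the cytokines in the culture are not stated in the labels, nor whether libraries came from separate mice. Each p-value is set against the spread among these 6 libraries, and that spread could be technical. In bulk samples, fewer cells of a type and less RNA per cell cannot be told apart.

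Receptors of this family are built from shared parts. The common γ chain (Il2rg) pairs with a chain that fixes which cytokine is recognised: the IL-2 receptor β chain (Il2rb) for IL-2 and IL-15, the IL-4 receptor α chain (Il4ra) for IL-4, and the IL-9 receptor (Il9r) for IL-9. The IL-2 receptor α chain (Il2ra, CD25) does not signal itself but raises the affinity of the β and γ chains for IL-2, and Il4ra also pairs with Il13ra1 to form a receptor for IL-4 and IL-13. The kinases JAK1 and JAK3 sit on the signalling chains, and pass the signal mainly to STAT5 for IL-2 and IL-9 and to STAT6 for IL-4. In ILC2s, IL-2 and IL-9 are known as growth and survival signals and IL-4 as a signal that promotes cytokine release, and CD25 is a common surface marker of these cells.

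None of the 5 receptor chains passed the threshold between ICOS KO and WT, and every fold change was under 1.2. The threshold was an adjusted p of 0.05 in edgeR's quasi-likelihood test, with Benjamini-Hochberg adjustment over all genes tested. Across all genes 3.29% were called: 176 rose and 275 fell. By unadjusted p under 0.05, 1 of the 5 chains passed, Il2ra, beside 19.9% of all genes. DESeq2 and limma voom with quality weights each called 1 chain, again Il2ra, and limma voom called 0. The libraries of the groups did not overlap for 2 of 5 chains, Il2ra and Il9r, both higher in ICOS KO, beside 24.4% of all genes. Il2rb, Il2rg and Il4ra had lower means in ICOS KO with overlapping libraries.

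**Figure D1:**
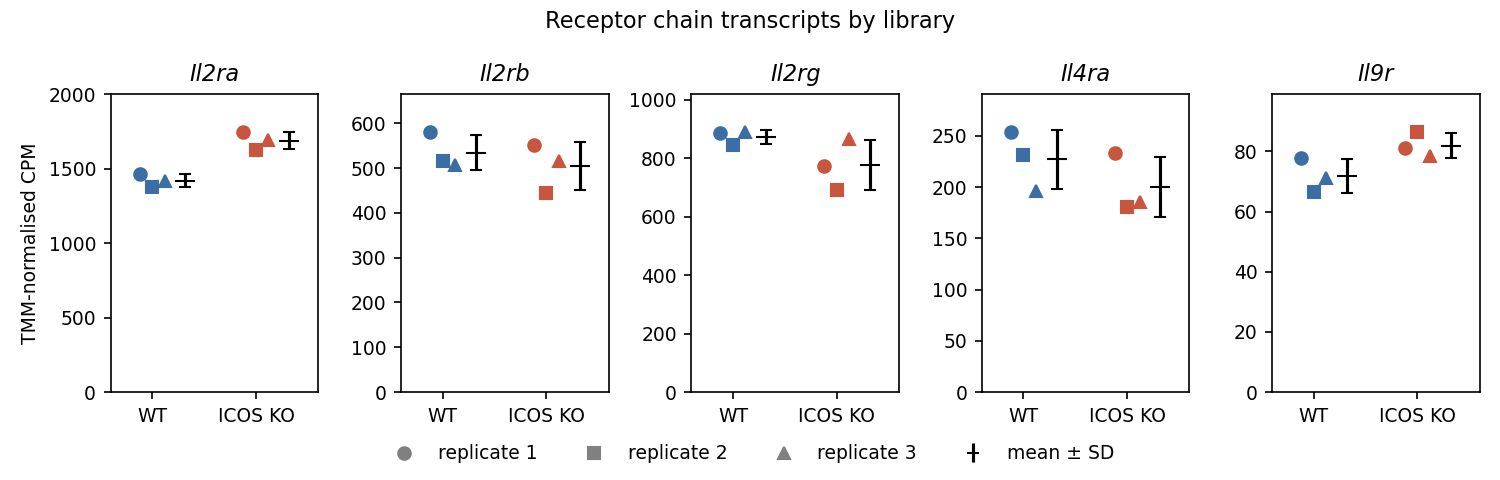
Level of each receptor chain in every library, in CPM with TMM factors (vertical axes from 0, a separate scale for each gene), with the mean ± SD of each group of 3. The ICOS KO libraries lie above the WT libraries for Il2ra and, by a small margin, for Il9r, and the groups overlap for the other chains.

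The α chain of the IL-2 receptor was the most abundant of the 5 transcripts by read count. Il2ra (ENSMUSG00000026770, GRCm38 chr2:11642807-11693193, plus strand) stood at 1465, 1373 and 1419 CPM (reads scaled to library size, with TMM factors) in WT libraries 1, 2 and 3, and at 1742, 1627 and 1692 in ICOS KO. The lowest ICOS KO library was above the highest WT library. Mean levels came to 1419 ± 45.9 CPM in WT and 1687 ± 57.9 in ICOS KO (SD, n = 3 each), a 1.19-fold difference with a 95% interval of 1.06 to 1.33 before adjustment. On the log2 scale this was 0.25 ± 0.073 (SE), with an unadjusted p of 0.00559 and an adjusted p of 0.0977 in edgeR. The exact two-sided permutation test on CPM gave p = 0.1, the smallest value that 3 against 3 libraries allow. Il2ra varied little between libraries: its coefficient of variation was 3.23% in WT and 3.43% in ICOS KO, against a median of 7.28% and 9.83% over genes of at least 50 CPM. The gene model Gm37881 lies within Il2ra on the same strand, and was itself counted at no more than 28.9 CPM in any library.

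The call on Il2ra depended on the method. Of 17 alternative settings, 4 called it: DESeq2 (adjusted p = 0.0356, where 7.16% of genes were called), limma voom with quality weights (0.0406; 6.62%), the replicate number as a block (0.0485; 5.73%) and removal of the length and GC trend (0.0237; 3.82%). With any of the 6 libraries left out it was not called, with adjusted p from 0.0909 to 0.360. The log2 fold change stayed above 0 throughout, from 0.19 with library totals alone to 0.30 with the length and GC trend removed.

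**Figure D2:**
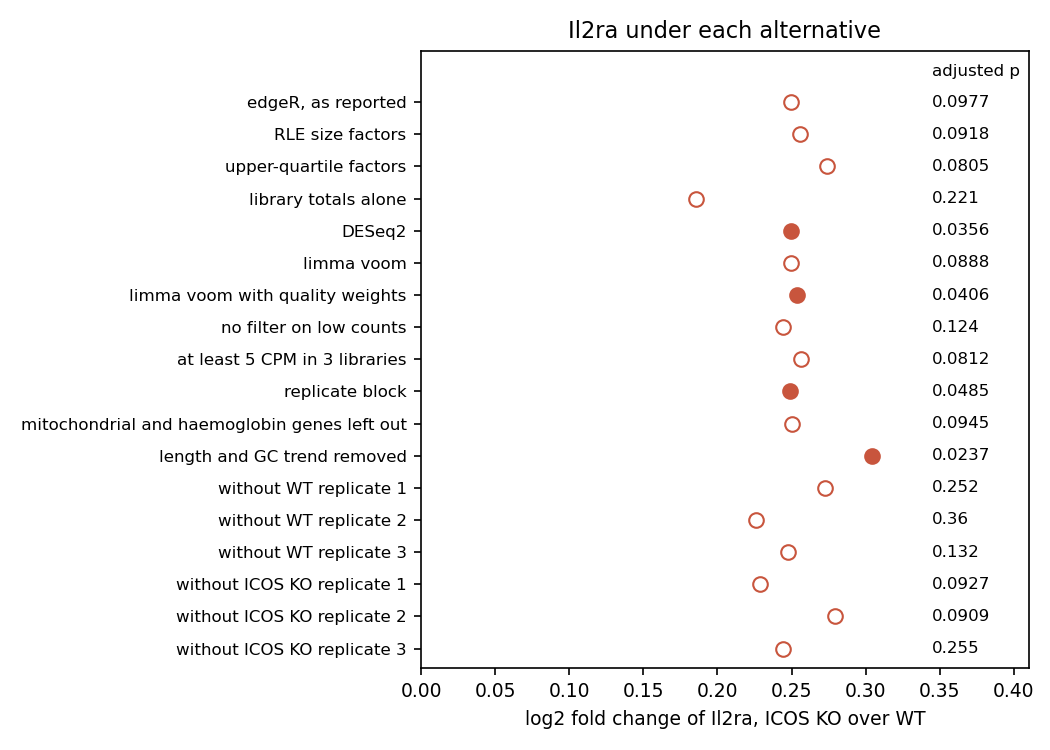
Log2 fold change of Il2ra, ICOS KO over WT, under the reported edgeR fit and 17 alternative settings (one per line, adjusted p at the right; filled points have an adjusted p under 0.05). The values lie between 0.19 and 0.30, and 4 of the 17 alternatives pass the threshold.

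The β chain, which carries the IL-2 signal into the cell together with the γ chain, differed by less than the spread of its libraries. Il2rb (ENSMUSG00000068227, chr15:78479256-78495271, minus strand) was at 580, 517 and 507 CPM in the WT libraries, against 552, 445 and 517 in ICOS KO. ICOS KO library 2 was the lowest of the 6, and the other two ICOS KO libraries lay within the WT range. Means were 535 ± 39.4 and 505 ± 54.6 CPM, with a log2 fold change of -0.08 ± 0.10 and an adjusted p of 0.679 in edgeR. The 95% interval of the fold ran from 0.809 to 1.10.

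The shared γ chain had its highest values in WT. Il2rg (ENSMUSG00000031304, chrX:101264378-101268255, minus strand) was at 886, 846 and 887 CPM in the WT libraries, against 772, 692 and 863 in ICOS KO. Only ICOS KO library 3 reached into the WT range. Means were 873 ± 23.7 and 776 ± 85.9 CPM, with a log2 fold change of -0.17 ± 0.093 (adjusted p = 0.328 in edgeR; exact permutation p = 0.2). The interval of the fold, 0.771 to 1.02, included 1. The coefficient of variation of Il2rg was 2.72% in WT and 11.1% in ICOS KO. The log2 fold change of Il2rg ran from -0.26 (without ICOS KO library 3) to -0.09 (without ICOS KO library 2). Gm20489, a gene model on the same strand, overlaps Il2rg, and reads of the overlap could not be assigned by strand.

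For the IL-4 receptor chain the libraries spread most. Il4ra (ENSMUSG00000030748, chr7:125552120-125579474, plus strand) was at 253, 231 and 197 CPM in the WT libraries, against 234, 181 and 186 in ICOS KO. Means were 227 ± 28.6 and 200.1 ± 29.3 CPM, with a log2 fold change of -0.18 ± 0.13 and an adjusted p of 0.439 in edgeR. The 95% interval of the fold was 0.727 to 1.07. Its log2 fold change ran from -0.31 (without ICOS KO library 1) to -0.10 (without WT library 1), and was -0.04 once the length and GC trend had been taken out. Within each genotype Il4ra and Il2rb were both higher where the share of mitochondrial reads was lower: that share was 0.263%, 0.294% and 0.422% in WT libraries 1, 2 and 3, and 0.329%, 0.616% and 0.492% in ICOS KO. Malat1, a nuclear RNA, had the same order, with 610, 664 and 996 CPM in WT and 811, 1687 and 1413 CPM in ICOS KO. Il2ra followed this order in ICOS KO (1742, 1627 and 1692 CPM) but not in WT. The part of RNA quality in these values was not tested. The antisense model Gm44876 overlaps Il4ra, and no source used here states whether the counting used strand.

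The IL-9 receptor was the least abundant chain. Il9r (ENSMUSG00000020279, chr11:32187541-32200279, minus strand) was at 77.8, 66.4 and 71.1 CPM in the WT libraries, against 81.1, 86.3 and 78.3 in ICOS KO. The groups were apart by a narrow gap, between 77.8 and 78.3 CPM. Means were 71.8 ± 5.75 and 81.9 ± 4.05 CPM, a 1.14-fold difference with an interval of 0.970 to 1.34. The log2 fold change was 0.19 ± 0.11, with an adjusted p of 0.342 in edgeR and an exact permutation p of 0.1, the smallest possible. Over the alternatives its log2 fold change ran from 0.12 to 0.28. Il2rb, Il2rg, Il4ra and Il9r were called under 0 of the 17 alternatives.

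**Figure D3:**
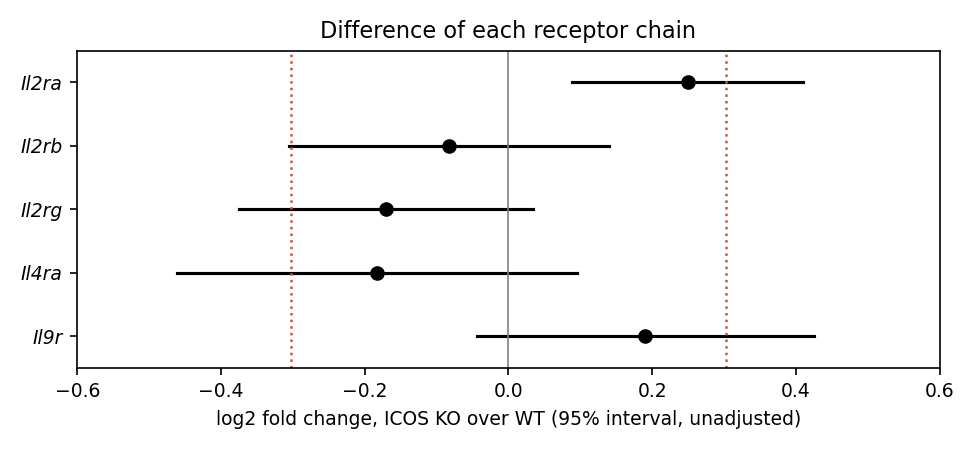
Log2 fold change of each receptor chain, ICOS KO over WT, from edgeR with its unadjusted 95% interval. The dotted lines at 0.30 to either side of 0 mark the smallest absolute log2 fold change of any called gene, and no chain's point estimate lies beyond them.

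Over all tested genes the median absolute log2 fold change was 0.23, a value that Il2ra (0.25) slightly exceeded and the other chains did not reach. That median also covers genes of low count, whose fold changes are less exact: of 13691 genes, 4087 had a mean of at least 50 CPM, as all 5 chains did. The smallest absolute log2 fold change of any called gene was 0.30 (1.23-fold), and the median over the called genes was 0.90. That smallest value belongs to 1 gene, the only called gene under 0.33. All 5 chains lay inside that smallest value, and the intervals of Il2ra, Il2rb, Il2rg, Il4ra and Il9r each reached beyond it on one side. A difference of that size was thus not excluded by the interval of any chain. The check of the genotype labels was clear by comparison: Icos fell from 434, 462 and 502 CPM in WT to 140, 170 and 161 in ICOS KO, a log2 fold change of -1.57 ± 0.10 (adjusted p = 1.27e-05 in edgeR).

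Because each ratio is taken within a library, the balance between chains does not depend on how libraries are scaled. There were 1.65, 1.62 and 1.60 Il2ra reads per Il2rg read in WT, and 2.26, 2.35 and 1.96 in ICOS KO. The lowest ICOS KO ratio was above every WT ratio, and the means were 1.63 ± 0.027 and 2.19 ± 0.204 (n = 3 each), which is 1.34-fold on the log scale. The Il9r to Il2rg ratio was 0.0878, 0.0785 and 0.0801 in WT and 0.105, 0.125 and 0.0907 in ICOS KO, 1.29-fold higher and also without overlap. For Il2ra and Il9r alike the exact permutation p was 0.1, the smallest possible, and 0.2 after adjustment over the 4 ratios. Ratios of Il2rb (0.571 to 0.654 in WT and 0.599 to 0.715 in ICOS KO) and of Il4ra (0.221 to 0.286 and 0.215 to 0.303) overlapped, with exact p of 0.5 and 1. A separation of 2 of 4 ratios stands beside 28.8% of all tested genes when each is divided by Il2rg. The ratios share the Il2rg count, so the 2 separations are not independent. Il2rg itself had a log2 fold change of -0.17, and was lowest (692 CPM) in ICOS KO library 2, where both these ratios were highest.

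**Figure D4:**
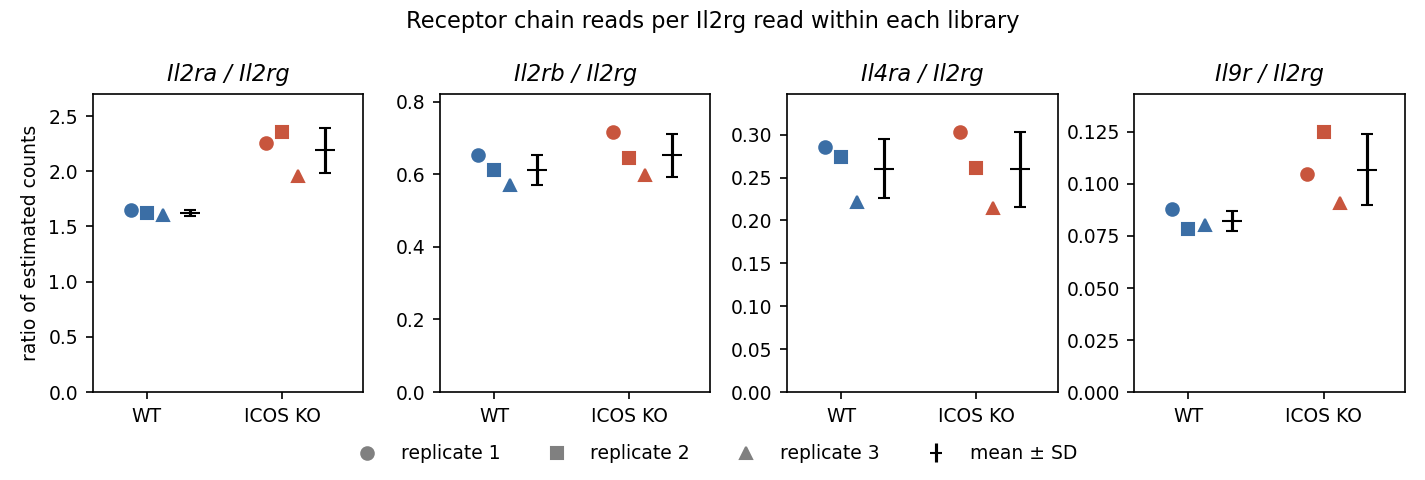
Estimated counts of Il2ra, Il2rb, Il4ra and Il9r divided by those of Il2rg in the same library (vertical axes from 0), with the mean ± SD of each group of 3. The Il2ra ratio lies at 1.60 to 1.65 in WT and 1.96 to 2.35 in ICOS KO, while the Il2rb and Il4ra ratios overlap.

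As shares of the summed reads of the 5 chains, Il2ra took 44.9%, 45.3% and 46.1% in WT and 51.5%, 53.7% and 50.7% in ICOS KO. The share of Il2rg was 27.2%, 27.9% and 28.8% in WT and 22.8%, 22.8% and 25.9% in ICOS KO. These shares are not independent of the ratios above. The sum itself was alike in the groups, at 3034 to 3262 CPM in WT and 3031 to 3382 CPM in ICOS KO.

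Levels of different genes are comparable only per length. Per kb of merged exon length the order in WT was Il2rg (366 ± 9.95 CPM per kb), Il2ra (249 ± 8.04), Il2rb (125 ± 9.19), Il4ra (37.8 ± 4.77) and Il9r (14.5 ± 1.16), and no neighbours in this order overlapped. Among 13363 genes with a length, these levels lay at percentiles 99.1, 98.4, 96.3, 87.1 and 72.9. In ICOS KO the order was the same, but Il2rg (290, 324 and 362 CPM per kb) and Il2ra (285, 296 and 305) overlapped. Il2rb (118 ± 12.7), Il4ra (33.3 ± 4.87) and Il9r (16.6 ± 0.82) followed without overlap. With coding length in place of exon length, Il2ra came first in both groups, at 1765 CPM per kb in WT against 789 for Il2rg. The rank of these 2 chains thus rests on the length used: the merged exons of Il2ra span 5711 bases, of which 804 code for protein in its longest coding transcript.

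Upstream sequence is shown for Il2ra and Il9r, the chains whose libraries did not overlap. RefSeq (GRCm38.p6) promoter windows matched 4 of the 5 chains, all but Il2rb, and covered 250 bases before to 50 after each start. Both strands were searched for GGGNNNNNCC (an NF-κB motif, in 50.8% of 32851 promoter windows), GATA (the core of the GATA3 motif, in 57.9%) and TTCNNNGAA (a STAT motif, in 8.30%). The 250 bases before each start are printed 5′ to 3′ on the gene's strand, with matches in capitals.
Il2ra, chr2:11642542-11642791, plus strand: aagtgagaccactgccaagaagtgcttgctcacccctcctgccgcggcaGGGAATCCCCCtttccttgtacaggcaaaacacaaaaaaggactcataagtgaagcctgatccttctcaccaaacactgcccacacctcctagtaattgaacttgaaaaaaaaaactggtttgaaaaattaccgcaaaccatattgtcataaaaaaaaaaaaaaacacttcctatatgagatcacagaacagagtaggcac
Il9r, chr11:32200280-32200529, minus strand: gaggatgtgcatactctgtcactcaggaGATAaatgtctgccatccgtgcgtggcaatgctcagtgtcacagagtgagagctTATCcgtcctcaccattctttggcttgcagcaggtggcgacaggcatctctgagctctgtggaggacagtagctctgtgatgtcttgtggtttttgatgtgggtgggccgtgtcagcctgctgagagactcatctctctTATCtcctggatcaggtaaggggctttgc
The capitals in Il2ra are 2 overlapping NF-κB matches, starting 201 and 200 bases before the start. The Il9r window held 3 GATA matches, 1 on the plus and 2 on the minus strand of the gene, at 222, 168 and 29 bases before the start. Il4ra had 1 NF-κB match, 20 bases after the start, Il2rg had none of the motifs, and no window of the 4 held the STAT letters. A match is a description of the letters and not a site shown to be bound.

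Transcripts of the ligands were measured in the same cells. Of 8 listed cytokines 3 passed the filter, and 1 rose: Il4 was at 17.4 ± 1.93 CPM in WT and 29.6 ± 4.09 in ICOS KO (log2 fold change 0.77, adjusted p = 0.0217 in edgeR), beside 1.29% of all genes called higher. Il9 levels were 73.3 ± 17.6 and 62.3 ± 11.6 CPM (adjusted p = 0.491 in edgeR) and Il13, which signals through Il4ra and Il13ra1, at 110 ± 2.41 and 130 ± 24.5 CPM (0.313). Il2 was near the floor of 3 reads, 0.160 to 0.218 CPM per library, with 0.316 to 0.682 CPM in WT and 0.371 to 0.676 in ICOS KO, and was not tested. The median log2 fold change of the 3 tested ligands was 0.24, the value of Il13, against -0.0035 over all genes. This median was 0.027 with the length and GC trend removed. It ran from 0.081 (without ICOS KO library 2) to 0.32 (without ICOS KO library 3) when a library was left out. The call on Il4 was lost without WT library 1 (adjusted p = 0.108 in edgeR), WT library 2 (0.131), ICOS KO library 2 (0.0677) or ICOS KO library 3 (0.0673). With the length and GC trend removed its log2 fold change was 0.50 (adjusted p = 0.0587), while Il9 passed the threshold at -0.64 (0.0279).

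Chains that pair with the 5 receptors or use the same γ chain, and Crlf2, which does neither, did not pass the test. The 4 tested were Il7r, the IL-7 receptor (71.5 ± 8.50 CPM in WT and 79.7 ± 3.85 in ICOS KO), Crlf2, the receptor of TSLP (14.8 ± 1.56 and 16.8 ± 1.68), Il15ra (10.8 ± 1.10 and 12.6 ± 3.005) and Il21r (1.53 ± 0.873 and 1.80 ± 0.553). Of these 4, edgeR called 0, beside 3.29% of all genes, and 0 had an unadjusted p under 0.05, beside 19.9%. DESeq2 (7.16% over all genes) and limma voom also called 0. With 4 genes, a count of 0 is not read as a result. The median log2 fold change of the 4 chains was 0.20. Il13ra1, the partner of Il4ra in the IL-13 receptor, was at 0.564 CPM in WT and 0.382 in ICOS KO, a level too low to be tested.

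Among 15 tested chains of other cytokine receptors, 2 fell, beside 2.01% of all genes called lower. Csf2rb, the β chain shared by the receptors for GM-CSF, IL-3 and IL-5, fell from 87.3 ± 9.31 to 43.9 ± 3.90 CPM (adjusted p = 0.00107 in edgeR), and this call held in all 17 alternatives. Il10ra, the α chain of the IL-10 receptor, fell from 123 ± 11.0 to 83.3 ± 7.13 CPM (adjusted p = 0.0178). Its call was lost without WT library 1 (0.102), WT library 2 (0.128) or ICOS KO library 3 (0.109). Il12rb1 (306 ± 44.2 and 263 ± 32.4 CPM, adjusted p = 0.345 in edgeR) and Il27ra (268 ± 22.2 and 244 ± 32.3, 0.523) did not pass. The median log2 fold change of the list was -0.16, with 3 chains positive and 12 negative. By unadjusted p under 0.05 in edgeR 4 of the 15 passed, beside 19.9% of all genes. DESeq2 called 1 higher and 3 lower, beside 7.16% of all genes. Csf3r, a chain of low count, was at 0.289 ± 0.208 CPM in WT and 1.84 ± 0.892 in ICOS KO. Its log2 fold change was 2.62 (adjusted p = 0.0564 in edgeR).

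Of 10 JAK and STAT genes described here, edgeR called 1 lower and 0 higher, beside 2.01% of all genes called lower. All 10 had a negative log2 fold change, with a median of -0.31 against an all-gene median of -0.0035. By unadjusted p under 0.05 in edgeR 5 of the 10 passed, beside 19.9% of all genes. DESeq2 called 2 of them (7.16% over all genes), and limma voom 1, or 3 with quality weights (6.62%). Signs of RNA quality moved with this list: all 6 tested quality genes, among them Malat1 and mitochondrial transcripts, had a positive log2 fold change (median 0.69; the haemoglobin gene Hba-a1 was the 1 called). Their part in the result was not tested. With the length and GC trend removed, 9 of 10 were negative and the median was -0.18. Stat6, which relays the IL-4 signal, was at 232, 216 and 183 CPM in WT and 162, 101 and 136 in ICOS KO, a log2 fold change of -0.66 (adjusted p = 0.0454 in edgeR). Every ICOS KO library was below every WT library, and within each genotype Stat6 was higher where the mitochondrial share was lower. The kinases of the γ chain receptors did not pass: Jak1 was at 392 ± 23.8 and 326 ± 39.7 CPM (adjusted p = 0.190 in edgeR) and Jak3 at 462 ± 69.4 and 391 ± 52.5 CPM (0.313). Nor did the IL-2 relays Stat5a (33.2 ± 3.87 and 30.6 ± 3.13 CPM, 0.675) and Stat5b (85.4 ± 11.8 and 62.8 ± 9.77 CPM, 0.120).

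The call on Stat6 was close to the threshold. It was lost without WT library 1 (adjusted p = 0.197 in edgeR), WT library 2 (0.179), ICOS KO library 2 (0.0848) or ICOS KO library 3 (0.167), and with no filter on low counts (0.0521).

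Signal adaptors, which couple the chains to the RAS and PI3K routes, had 0 of 13 genes called by edgeR, beside 3.29% of all genes. Of the 13, 2 had an unadjusted p under 0.05 (19.9% over all genes), and the median log2 fold change was 0.0045. DESeq2 called 1 of them, beside 7.16% of all genes, and limma voom 0, without or with quality weights. Irs2, an adaptor of the IL-4 receptor, was at 386 ± 113 CPM in WT and 558 ± 65.9 in ICOS KO (adjusted p = 0.150 in edgeR), and Grb2 at 305 ± 4.83 and 332 ± 12.9 CPM (0.424). Irs2 passed with DESeq2 (adjusted p = 0.0498) and with the length and GC trend removed (0.0290). Of 17 feedback inhibitors 1 rose and 1 fell, with a median of -0.08, against 1.29% and 2.01% over all genes. Socs3, a brake on cytokine receptors that is itself induced by STAT signals, rose from 251 ± 22.2 to 387 ± 42.9 CPM (adjusted p = 0.0084 in edgeR). Sh2b3, an adaptor that restrains JAK signalling, fell from 27.5 ± 3.60 to 12.6 ± 3.94 CPM (0.0153). Both calls were lost without WT library 1 (0.0543 for Socs3 and 0.0860 for Sh2b3) or ICOS KO library 3 (0.0527 and 0.0665). Cish, a target of STAT5 that acts on the IL-2 receptor (485 ± 13.9 and 439.6 ± 12.1 CPM, adjusted p = 0.350 in edgeR), and Socs1 (732 ± 66.02 and 812 ± 68.4, 0.407) did not pass.

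**Figure D5:**
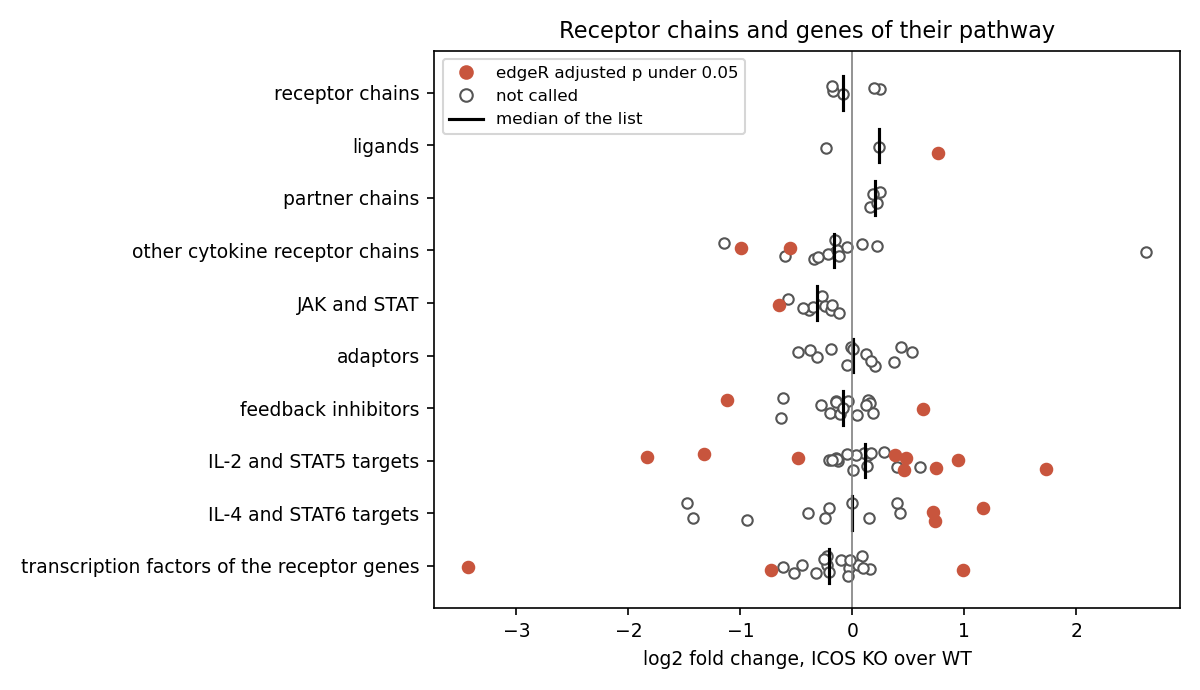
Log2 fold change, ICOS KO over WT, of each tested receptor chain and of the tested genes in 9 lists of their pathway (one point per gene, filled where the adjusted p in edgeR is under 0.05; the vertical bar is the median of the list). No receptor chain is called, and all 10 JAK and STAT genes lie below 0 on this scaling, 9 of 10 with the length and GC trend removed.

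Genes listed as targets of IL-2 and STAT5 moved in both directions: of 24 tested, 6 rose and 3 fell, with a median of 0.12, beside 1.29% of all genes called higher and 2.01% called lower. Il10, a suppressive cytokine, rose from 47.0 ± 6.74 to 155 ± 5.09 CPM (adjusted p = 1.36e-05 in edgeR), and Tnfrsf18, the co-stimulator GITR, from 652 ± 16.8 to 1093 ± 123 CPM (0.0012). Granzyme B (Gzmb), a cytotoxic protease, reached 393 ± 96.7 CPM against 205 ± 24.8 in WT (0.00694), and the survival kinase Pim2 246 ± 10.9 against 179 ± 12.2 CPM (0.0208). The lymphotoxin genes fell, Lta from 194 ± 7.14 to 54.4 ± 5.01 CPM (adjusted p = 4.24e-06 in edgeR) and Ltb from 128 ± 20.8 to 51.2 ± 9.76 CPM (0.000844). Osm (128 ± 3.56 to 179 ± 23.0 CPM, adjusted p = 0.0367) and Tnfrsf9 (477 ± 36.5 to 623 ± 22.6 CPM, 0.0381) also rose, and Myc fell (90.9 ± 7.71 to 64.7 ± 5.17 CPM, 0.0375). These last 3 were named after their values were seen, to complete the count. Furin (714 ± 120 and 692 ± 128 CPM, adjusted p = 0.893 in edgeR) and Ccnd3 (581 ± 33.0 and 529 ± 4.63, 0.382) did not pass.

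Il10, Tnfrsf18, Lta and Ltb were called in all 17 alternatives. Gzmb lost its call without WT library 2 (adjusted p = 0.0564 in edgeR). Pim2 lost it without WT library 1 (0.0715), 2 (0.120) or 3 (0.0663) or ICOS KO library 3 (0.118). Myc, Osm and Tnfrsf9 lost theirs without any one of the WT libraries (highest adjusted p 0.210, 0.189 and 0.206) and without ICOS KO library 2 (0.111, 0.0508 and 0.0617) or 3 (0.160, 0.174 and 0.117). With library totals alone, Pim2 (0.0518), Osm (0.0662) and Tnfrsf9 (0.0900) missed the threshold.

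Among targets of IL-4 and STAT6, 3 of 13 rose and 0 fell, with a median of -0.0036 (1.29% and 2.01% over all genes). Arg1, the arginase that ILC2s use to break down arginine, rose from 380 ± 17.8 to 628 ± 14.4 CPM (adjusted p = 0.000684 in edgeR), and the cytokine gene Il24 from 21.8 ± 2.30 to 48.9 ± 9.09 CPM (0.00225). Both were called in all 17 alternatives. Cd79b, better known as a chain of the B cell receptor complex, rose from 19.1 ± 1.76 to 31.9 ± 7.29 CPM (0.0466). That call did not hold without WT library 1 (0.184), 2 (0.120) or 3 (0.108) or ICOS KO library 3 (0.199), nor with library totals alone (0.0662), limma voom (0.0574), no filter (0.0596) or the length and GC trend removed (0.117). Xbp1 (838 ± 35.4 and 836 ± 44.9 CPM, adjusted p = 0.987 in edgeR) and Gata3, the lineage factor of ILC2s (868 ± 51.0 and 753 ± 53.1 CPM, 0.227), did not pass.

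Of 19 transcription factors with a known role at the receptor genes, edgeR called 1 higher and 2 lower (1.29% and 2.01% over all genes). By sign alone 5 were positive and 14 negative, with a median log2 fold change of -0.20. With the length and GC trend removed the signs were 8 and 11, and the median was -0.02. Satb1, a chromatin organiser, rose from 47.9 ± 3.02 to 94.8 ± 4.59 CPM (adjusted p = 0.00046 in edgeR), a call kept in all 17 alternatives. Nfkb2 fell from 89.2 ± 13.2 to 54.0 ± 7.83 CPM (0.0169), while Nfkb1 was at 374 ± 9.14 and 396 ± 26.8 CPM (0.627). Tbx21, which drives Il2rb in natural killer cells, fell from 2.07 ± 0.874 to 0.179 ± 0.196 CPM (0.0375), with ICOS KO at about the floor of 3 reads. Nfkb2 lost its call without WT library 1 (adjusted p = 0.102 in edgeR), WT library 2 (0.0814), ICOS KO library 2 (0.0579) or ICOS KO library 3 (0.0972). Tbx21 lost it without WT library 1 (0.201), 2 (0.158) or 3 (0.0527) or ICOS KO library 2 (0.0768) or 3 (0.174), and with no filter (0.0505). Its log2 fold change moved from -3.43 to -4.66 without ICOS KO library 1, values that rest on few reads.

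Counting each gene once, 21 of the 113 tested genes in the pathway lists were called (18.6%, against 3.29% over all genes), 12 higher and 9 lower. The lists were chosen with earlier results of these data known, so this share is not independent evidence. With library totals alone, 8 were higher and 11 lower.

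The 2 nearest tested genes on either side of each chain gave 20 genes. Of these edgeR called 0, beside 3.29% of all genes, and 4 had an unadjusted p under 0.05 (19.9% over all genes). DESeq2 called 1 (7.16% over all genes), and limma voom 0, or 2 with quality weights (6.62%). A count of 0 in 20 is near the share over all genes and is not read as a result. The log2 fold changes of the 20 genes ran from -0.60 to 0.94. Il15ra lies 12.1 kb from Il2ra, and Il21r 24.0 kb from Il4ra. Snrnp25, 5.14 kb from Il9r, was at 120 ± 1.98 CPM in WT and 163 ± 22.9 in ICOS KO (adjusted p = 0.063 in edgeR). Kctd17 beside Il2rb (22.6 ± 1.17 and 30.8 ± 5.99 CPM) and Gtf3c1 beside Il4ra (34.8 ± 3.73 and 23.2 ± 6.09 CPM) were, with Snrnp25, the 3 of 20 neighbours whose groups did not overlap, beside 24.4% of all genes.

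The genes with the most similar pattern were ranked by Pearson r of log2 CPM over the 6 libraries among 6520 genes of at least 20 CPM, as a description. For Il2ra they were Arf1 (r = 0.995), Pik3ap1 (0.994) and Gimap4 (0.988). Pik3ap1 rose from 27.4 ± 5.20 to 56.6 ± 6.46 CPM (adjusted p = 0.00381 in edgeR) and Gimap4 from 36.2 ± 2.95 to 64.1 ± 5.09 CPM (0.00349), while Arf1 was at 863 ± 7.92 and 941 ± 15.4 CPM (0.367). For Il2rb the nearest were Mtrex (0.991), Tyw1 (0.985) and Map2k3 (0.984), and for Il2rg Syngr2 (0.989), Ep400 (0.986) and Cdc42ep3 (0.983). For Il4ra they were Aff4 (0.998), Ppp6r1 (0.997) and Carmil2 (0.995), and for Il9r Ubald1 (0.992), Gpcpd1 (0.982) and Hes6 (0.981). An r of at least 0.9 was reached by 379 genes for Il4ra, 145 for Il2rb, 119 for Il2ra, 100 for Il2rg and 27 for Il9r. The 6 points share their libraries and depth, and no test was made on these r values.

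Other cell types can carry these receptors, so their markers are given for both groups. The counts of markers that rose or fell in edgeR stand beside 1.29% of all genes called higher and 2.01% called lower. Over all genes 19.9% had an unadjusted p under 0.05 in edgeR. DESeq2 called 7.16% of them, and limma voom with quality weights 6.62%. ILC2 markers summed to 8367 to 9436 CPM in WT and 8756 to 9428 in ICOS KO, with Il5 at 6460 ± 533 and 6049 ± 309 CPM; of 11, 4 rose (Il1rl1, Klrg1, Areg and Arg1) and 1 fell (Rora). Mast cells and basophils also use Csf2rb and can make Il4; their markers summed to 350 to 404 CPM in WT and 60.1 to 72.0 in ICOS KO, and 6 of 8 fell. T cell markers summed to 251 to 305 and 370 to 473 CPM. Of 7 tested, Trbc1 and Trbc2 rose and Cd3e fell, Cd8a was at 0 in all ICOS KO libraries, and Cd4 averaged 0.385 and 0.0215 CPM. Foxp3, a marker of the regulatory T cells that carry much CD25, was at 4.99 ± 0.325 and 3.48 ± 0.134 CPM (adjusted p = 0.323 in edgeR). The remaining lists are given as sums in WT and ICOS KO. NK and ILC1 markers gave 6.42 to 10.3 and 3.91 to 7.57 CPM (2 of 4 fell, among them Tbx21). B and plasma cell markers gave 165 to 213 and 242 to 249 CPM (1 of 6 rose, Cd79b). Arg1, Tbx21 and Cd79b were also counted in the pathway lists above, so these calls are not separate results. Myeloid markers gave 134 to 177 and 75.8 to 111 CPM (1 of 9 fell), and epithelial and stromal markers 143 to 232 and 143 to 259 CPM (1 of 5 rose). Eosinophil markers gave 14.3 to 52.3 and 16.7 to 20.1 CPM, and ILC3 markers 18.3 to 32.8 and 39.0 to 61.3 CPM; edgeR called 0 of 2 in each, with 1 and 2 at an unadjusted p under 0.05, DESeq2 called 0 and 1, and limma voom, without or with quality weights, 0 and 1. The part of these cells in the receptor and pathway values was not tested.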

How the data were processed

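RNA of cultured ILC2s was turned into cDNA with a low-input SMARTer kit, per the labels' protocols; molecular identifiers are not mentioned, so reads are not independent molecules and floors cover counting error only. Reads were processed with STAR 2.7.8, Partek 10.0 and DESeq2 on build mm10, per the submitters' processing notes; annotation and strand setting: not given in the sources used here. What the authors deposited are estimated counts per gene (39.4% of values not whole), which were rounded. The design text speaks of duplicates; all 3 libraries per genotype were used. Totals were 14976130 to 18736474 (WT) and 13738062 to 15543034 (ICOS KO).

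Genes kept by filterByExpr (13691) were tested with edgeR 4.0.16 (R 4.3.3; TMM factors, quasi-likelihood F test, no covariates, Benjamini-Hochberg threshold 0.05), and SE and intervals follow from F. Exact permutation tests covered single values. Pairs of libraries had Pearson r of 0.948 to 0.979 and differed beyond sampling noise. The fit was tested on simulated data. Positions and lengths come from GENCODE M21 (GRCm38), matched by symbol for 17656 of 18122 genes; a promoter table from RefSeq supplied sequences.

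The members, the lists and the rule for named genes were chosen with earlier results of these data known. The rule took the 5 chains, Icos, up to 6 called genes of each pathway list by smallest p and its 2 most abundant uncalled genes, the 2 nearest tested neighbours on either side of each chain and the 3 genes most like it; other genes named were chosen after their values were seen. The result of 1 gene of the lists is not reported here. Alternatives were scaling by RLE, by upper quartiles or by library totals; DESeq2 1.42.0; limma 3.58.1 voom without and with quality weights; no filter; a minimum of 5 CPM in 3 libraries; a block for the replicate number; mitochondrial and haemoglobin genes left out, a length and GC trend removed (both known for 97.6% of tested genes), and each library left out in turn.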

Additional observations from a re-analysis of the deposited data

How the results depend on the processing

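Over 62 named genes and 17 alternatives, the 5 receptor chains gave 85 values: 79 kept their direction and their side of the threshold, 4 passed it, and 2 turned in direction. The 4 were Il2ra, at a log2 fold change of 0.25 with DESeq2, 0.25 with quality weights, 0.25 with the replicate block and 0.30 with the length and GC trend removed, so that 1 chain was called under each of these. Under that trend removal Il2rb turned to 0.0059, and it ran from -0.15 to 0.0047 when a library was left out. The ratio of Il4ra to Il2rg had a log2 difference from -0.13 to 0.12 when a library was left out. With coding length 2 chains changed place in the order of levels, in WT and in ICOS KO.

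Over all genes, 451 were called; the count was 919 with DESeq2, 906 with quality weights and 784 with the replicate block, and ran from 193 (without WT library 1) to 1090 (without ICOS KO library 1) when a library was left out. The share of called genes higher in ICOS KO was 39.0%, and 28.2% with library totals alone. Called genes in the pathway lists ran from 9 to 26, against 21, when a library was left out. Among the other named genes, all uncalled, Furin turned to 0.15, Ccnd3 to 0.0615, Aff4 to 0.0517 and Carmil2 to 0.0568 with the length and GC trend removed. Furin ran from -0.17 to 0.0852 and Map2k3 from -0.11 to 0.0022 when a library was left out. Xbp1 was at 0.0027 with RLE factors, 0.0217 with upper-quartile factors, 0.0101 with quality weights, 0.0037 with the filter at 5 CPM and 0.0264 with the trend removed, and ran from -0.0443 to 0.0409 when a library was left out. The cause of these changes was not tested.

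Whether the shared replicate numbers pair libraries is not stated in the labels. Deviations of same-numbered libraries correlated at 0.0868, 0.0784 and 0.0643, all under the 0.1 set beforehand for pairing. Each library still correlated best with its own number, and the other pairs ran from -0.0822 to 0.00651. A pairing can therefore not be decided from these values, and the main fit used no block. The total depth limits most the genes near the floor of 3 reads, such as Il2 and Il13ra1. Fold changes of other genes of low count, such as Il21r, are also less exact.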
